A study of Mus musculus with 7 samples.

Results

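The MHC class I loading genes and the immunoproteasome genes were examined in macrophages sorted from tumours of mice with and without Gpr65, a receptor for extracellular protons. The 10 genes were taken by name from the deposited table of 53379 rows. They are the class I heavy chains H2-K1 and H2-D1, the light chain B2m, the peptide transporter and loading genes Tap1, Tap2 and Tapbp, the immunoproteasome subunits Psmb8, Psmb9 and Psmb10, and the transactivator Nlrc5. All 10 passed the filter on low counts, which left 16234 genes for testing. The samples were 4 Gpr65-wild-type and 3 Gpr65-knockout C57BL/6J mice, each 1 library. Every mouse in both groups had been fed a high-fat diet and carried an MC38 tumour (from a mouse colon carcinoma line), and tumours were taken 21 days after implantation. The cells were sorted as CD45-, CD11b- and F4/80-positive. No group on another diet is in the comparison, and the ages of the mice and the cells in which the deletion acts are not given in the sources used here.

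Cytosolic proteins are cut into peptides by the proteasome, and in cells exposed to interferon the catalytic subunits Psmb5, Psmb6 and Psmb7 are replaced in newly built particles by Psmb8, Psmb9 and Psmb10, which changes the peptides produced. Tap1 and Tap2 together carry peptides into the endoplasmic reticulum, where tapasin (Tapbp) holds empty class I molecules next to the transporter until a peptide is bound. A heavy chain with its peptide and B2m is then shown at the cell surface to CD8 T cells. Nlrc5 is a nuclear protein of the NOD-like receptor family that raises transcription of class I genes through a composite promoter element with X and Y boxes.

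Of the 10 genes, 7 lie on chromosome 17 of GRCm38 in the major histocompatibility complex, within 1.35 Mb from Tapbp to H2-D1. B2m is on chromosome 2 (122147686 to 122153083, plus strand), and Psmb10 (105935735 to 105938444, minus strand) and Nlrc5 (94434356 to 94527272, plus strand) are on chromosome 8. Psmb9 (34181987 to 34187764, minus strand), Tap1 (34187553 to 34197225, plus strand), Psmb8 (34197721 to 34201454, plus strand) and Tap2 (34203527 to 34216321, plus strand) are direct neighbours that span 34.3 kb. H2-K1 lies at 33996017 to 34000347 (minus strand), Tapbp at 33915899 to 33929292 (plus strand) and H2-D1 at 35262730 to 35267499 (plus strand) of the same chromosome.

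The promoters of the class I chains are shown because 3 of the genes carry the same pair of short motifs at the same distance. The stretches below are RefSeq sequence on GRCm38.p6, read 5′ to 3′ on each gene's own strand. Capitals mark TGACG, the core of the CRE-like X2 box, and ATTGG, the reverse complement of the CCAAT motif that makes up the Y box. They cover chr17:34000344-34000413 (minus strand) for H2-K1, chr17:35262968-35263037 (plus strand) for H2-D1 and chr2:122147584-122147653 (plus strand) for B2m.
H2-K1: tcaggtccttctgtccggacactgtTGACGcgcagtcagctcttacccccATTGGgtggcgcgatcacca
H2-D1: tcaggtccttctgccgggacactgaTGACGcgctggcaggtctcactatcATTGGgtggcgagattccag
B2m: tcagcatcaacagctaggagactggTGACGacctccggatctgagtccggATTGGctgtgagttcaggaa

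In these genes TGACG began 25 bases before ATTGG. It began 55 bases before the annotated RNA start in H2-K1 (41 bases from a second annotated start), 101 bases before it in H2-D1 and 78 bases before it in B2m. Among 32851 windows of 250 bases before RefSeq starts, 30 held this pair at this distance on either strand (0.0913%), in 26 of 27025 genes. The spacing was looked up after these sequences had been read, so it is a description. The promoter table held 8 of the genes and not Tap2 or Nlrc5. CCAAT was found on either strand in the windows of H2-K1, H2-D1, B2m, Tap1, Tapbp and Psmb9 and in 33.85% of all windows. TGACG was found in those of H2-K1, H2-D1, B2m, Tap1 and Psmb9 and in 17.8% of all windows. The interferon-stimulated response element core, GAAANNGAAA, was found in the window of B2m (2.98% of all windows) and the gamma-activated site, TTCNNNGAA, in that of Psmb8 (7.02% of all windows). No match overlapped a match of another motif in these windows. A match of letters is not shown to be a bound site.

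Tap1 and Psmb9 are transcribed away from each other, and their promoter windows of 300 bases share 275 bases, so their motif matches are the same letters. The 250 bases before the Tap1 start (chr17:34187306-34187555, plus strand) are shown for this reason, with CCAAT (at -222) and TGACG (at -86) in capitals.
Tap1: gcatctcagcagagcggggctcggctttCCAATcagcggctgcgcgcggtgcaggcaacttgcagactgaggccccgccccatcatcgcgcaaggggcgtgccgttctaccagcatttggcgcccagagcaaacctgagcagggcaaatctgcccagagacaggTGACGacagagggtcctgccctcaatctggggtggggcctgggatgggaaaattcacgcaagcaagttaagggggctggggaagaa

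The libraries held 22449772 to 30483733 counts. Macrophage markers were high in all 7, with Lyz2 at 6562 to 12602 CPM (scaled by library size and TMM factor), Csf1r at 1805 to 3264 CPM and Adgre1, which encodes F4/80, at 327 to 1332 CPM. Gpr65 measured 65.2 to 112 CPM in wild-type and averaged 0.921 ± 0.215 CPM (SD, n = 3) in knockout libraries, a log2 fold change of -6.62 (SE 0.30, edgeR adjusted p = 7.9984e-05). Knockout 1 stood apart on the leading principal component (44.2% of the variance), at -68.5 against -2.30 to 28.0 in the others. Knockout 2 had 19.9% of its counts in its 10 largest genes, against 8.75% to 14.2% elsewhere, and the lowest TMM factor, 0.807. The 8 T cell markers summed to 26.3 to 87.8 CPM in wild-type mice and to 17.8, 59.6 and 401 CPM in the knockout group 1 to 3. The 7 NK cell markers summed to 27.0 to 185 CPM and to 18.6, 50.2 and 603 CPM. The 8 neutrophil markers summed to 81.3 to 193 CPM in wild-type libraries and to 84.5 to 182 CPM in knockout libraries. Csf3r was the largest part in every library, and Ly6g had 0 counts throughout. Of the 5 neutrophil markers tested, 1 had a positive fold change (Csf3r) and 4 a negative one. Retnlg measured 0.874, 48.6, 2.82 and 10.6 CPM in wild-type mice 1 to 4, against 0, 0.122 and 0.551 CPM in knockout mice 1 to 3. The 5 B cell markers summed to 8.44 to 20.8 CPM in the wild-type group and to 9.64, 41.5 and 28.1 CPM in knockout mice 1 to 3. The 5 MC38 or epithelial markers, mostly Cdh1, summed to 126 to 451 CPM and to 168, 41.8 and 77.9 CPM. The 7 dendritic cell markers summed to 32.8, 217, 80.2 and 67.4 CPM in wild-type mice 1 to 4, mostly Ccr7 in wild-type 2. In knockout mice 1 to 3 they summed to 81.0, 48.4 and 71.1 CPM. Of these 7 genes 3 had a positive fold change and 4 a negative one. In 2 of them, Xcr1 and Clec9a, all knockout mice lay above all wild-type mice, beside 2.8% of all genes tested. Xcr1 measured 4.32 to 8.86 CPM in wild-type and 10.7 to 20.4 CPM in knockout mice (edgeR adjusted p = 0.657). Clec9a measured 0.125 to 3.32 CPM in wild-type and 3.35 to 3.71 CPM in knockout mice. The 4 endothelial markers summed to 31.7, 165, 39.05 and 65.2 CPM in wild-type and to 32.7, 38.9 and 58.0 CPM in knockout mice. Pecam1 made up most of the sum in wild-type 2, at 163 CPM. Cdh5 and Kdr were lowest in that library, at 0.424 and 0.965 CPM, and Cldn5 had 0 counts throughout. The 4 fibroblast markers summed to 18.5, 47.2, 21.2 and 80.0 CPM and to 59.5, 18.6 and 7.13 CPM. In bulk RNA a difference in the number of cells of a type and a difference in RNA per cell cannot be told apart.

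None of the 10 genes differed between the genotypes at an adjusted p under 0.05, and in all 10 the groups overlapped. The fitted log2 fold change, knockout over wild-type, was positive for all 10, from 0.11 for Psmb10 to 0.56 for B2m, with a median of 0.35 beside a median of -0.002 over all genes tested. Every member was higher in knockout 2 than in any wild-type mouse, whereas knockout 1 was below the lowest wild-type mouse for H2-D1, Tap1 and Tapbp. The genes together took 1.20% of the counts in wild-type 1, the lowest share, and 2.40% in knockout 2, the highest.

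**Figure D1:**
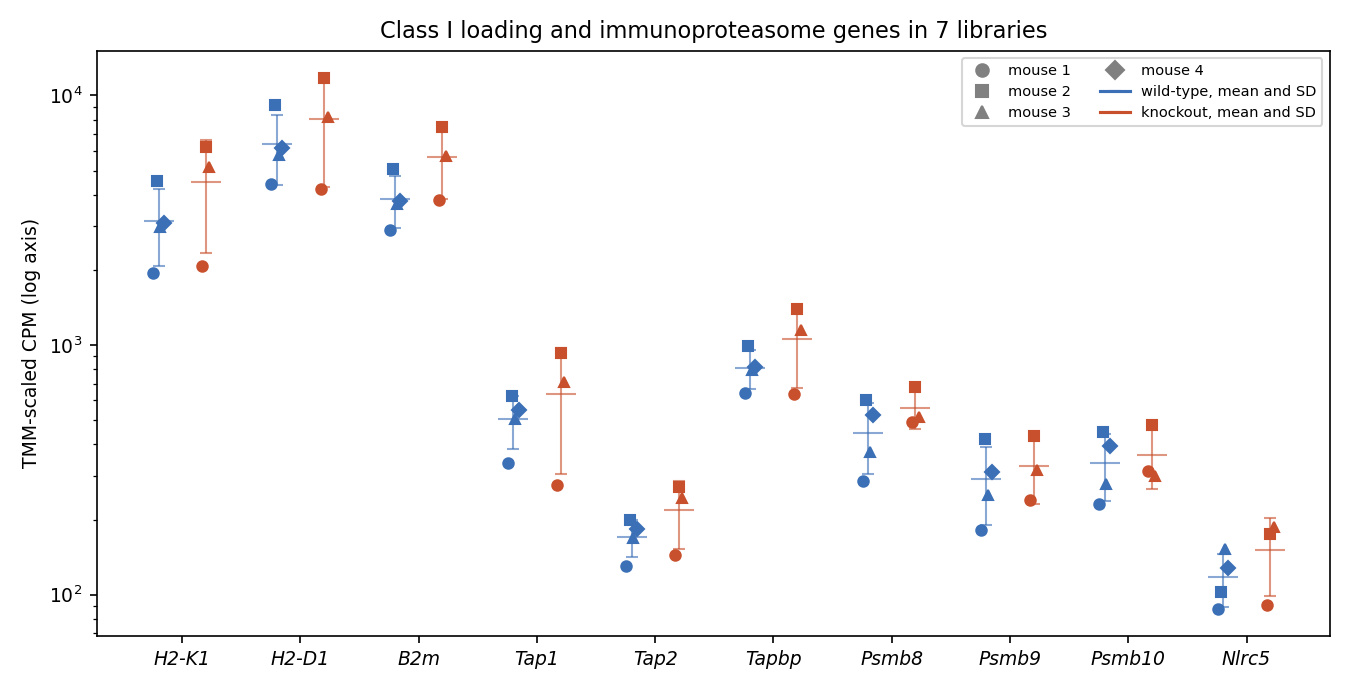
CPM after TMM scaling (log axis) of the 10 genes in each of the 7 libraries, wild-type in blue and knockout in orange. The marker shape gives the mouse number within its group, and bars give the mean and SD. In every gene the knockout values overlap the wild-type range, and knockout 2 lies above all wild-type values.

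The class I heavy chains present peptide to CD8 T cells. H2-K1 measured 1949, 4553, 2962 and 3094 CPM in wild-type mice 1 to 4, against 2068, 6217 and 5185 CPM in the knockout group 1 to 3. Knockout 2 and 3 lay above all wild-type mice and knockout 1 lay near the lowest one. The group levels were 3139 ± 1072 CPM (SD, n = 4) and 4489.8 ± 2159.9 CPM (SD, n = 3), a log2 fold change of 0.52 (SE 0.40, 95% interval -0.38 to 1.42, edgeR adjusted p = 1).

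H2-D1, the other classical heavy chain of this strain, measured 4428, 9122, 5750.2 and 6141 CPM in the wild-type group, against 4223, 11732 and 8217 CPM in the knockout group. Here wild-type 2 exceeded knockout 3, and knockout 1 was the lowest of all libraries. The levels were 6360.3 ± 1982 CPM (SD, n = 4) and 8058 ± 3757 CPM (SD, n = 3), with a log2 fold change of 0.34 (SE 0.37, 95% interval -0.49 to 1.17, edgeR adjusted p = 1). Heavy chains resemble each other in sequence, and 9.63% of the 50-base words of H2-K1 transcripts and 12.8% of those of H2-D1 also occur in other genes, mainly other H2 genes. Reads from such words cannot be assigned to 1 gene, so both levels are uncertain, by an amount that was not measured.

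B2m, the light chain shared by all class I molecules, measured 2882, 5070.5, 3667 and 3759 CPM in the wild-type group, against 3807, 7447 and 5697.5 CPM in the knockout group. All 3 knockout mice lay above wild-type 1, 3 and 4, and knockout 1 lay below wild-type 2. Of the 10 genes it had the smallest unadjusted p, 0.081, with a log2 fold change of 0.56 (SE 0.28, 95% interval -0.085 to 1.20) and an edgeR adjusted p of 0.982. It shared no 50-base word with another gene.

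Tap1 encodes one chain of the peptide transporter. It measured 336, 623, 507 and 549 CPM in the wild-type group, against 275, 930.1 and 709 CPM in the knockout group. The knockout values enclosed the whole wild-type range, with knockout 1 lowest and knockout 2 3.38 times as high. Its log2 fold change was 0.34 (SE 0.38, 95% interval -0.52 to 1.20, edgeR adjusted p = 1).

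Tap2, the partner of Tap1 in the transporter, measured 131, 199.95, 169 and 183 CPM in the wild-type group, against 144, 269 and 245 CPM in the knockout group. It varied less between libraries than Tap1, 2.06-fold from lowest to highest against 3.38-fold. The log2 fold change was 0.36 (SE 0.24, 95% interval -0.19 to 0.91, edgeR adjusted p = 1). Tapbp measured 645, 993, 796 and 814 CPM in the wild-type group, against 638, 1398.5 and 1147 CPM in the knockout group. Knockout 2 and 3 were again above all wild-type mice and knockout 1 was just under the lowest, with a log2 fold change of 0.39 (SE 0.28, 95% interval -0.24 to 1.01, edgeR adjusted p = 1).

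The immunoproteasome subunits replace the constitutive catalytic ones. Psmb8, the inducible counterpart of Psmb5, measured 285, 600.3, 374 and 524 CPM in the wild-type group, against 493, 677 and 513 CPM in the knockout group. Knockout 1 and 3 lay within the wild-type range and knockout 2 above it. The log2 fold change was 0.33 (SE 0.27, 95% interval -0.28 to 0.94, edgeR adjusted p = 1).

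Psmb9, the counterpart of Psmb6, measured 181, 419, 251 and 309.98 CPM in the wild-type group, against 239, 433 and 316 CPM in the knockout group, with a log2 fold change of 0.18 (SE 0.30, 95% interval -0.51 to 0.87, edgeR adjusted p = 1). Psmb10, the counterpart of Psmb7, measured 231, 448, 277 and 395 CPM in the wild-type group, against 314, 479 and 299.96 CPM in the knockout group, with a log2 fold change of 0.11 (SE 0.27, 95% interval -0.51 to 0.73, edgeR adjusted p = 1). In both genes wild-type 2 and knockout 2 were the highest libraries and wild-type 1 the lowest.

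Nlrc5 measured 87.6, 102, 152 and 128 CPM in the wild-type group, against 91.3, 176 and 187 CPM in the knockout group, from 2105 to 5096 counts per library. Knockout 3 was the highest library for Nlrc5, the 1 gene of the 10 for which knockout 2 was not. Wild-type 2, which had the highest wild-type value of the other 9 genes, was the second lowest of the wild-type mice for Nlrc5. The log2 fold change was 0.36 (SE 0.28, 95% interval -0.27 to 1.00, edgeR adjusted p = 1).

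By edgeR's quasi-likelihood test 0 of the 10 genes were called, where 6 of 16234 genes were called in all (0.037%). At an unadjusted p under 0.05 there were 0 of 10 higher in knockout, beside 2.57% of all genes, and 0 of 10 had all knockout above all wild-type mice, beside 2.8% of all genes. DESeq2 and limma voom called 0 of the 10 as well. A missed threshold does not show equal levels, since the 95% intervals reached up to 1.42 on the log2 scale for H2-K1. The median of the 10 fold changes depended on the library left out. It was 0.15 without knockout 2 and 0.20 without wild-type 1, with 6 and 8 of the 10 positive, and 0.62 without knockout 1. Without knockout 3, which had the highest T cell and NK cell marker sums, it was 0.30. The limma voom fit with library weights gave 0.62.

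In 4 of the 7 libraries at least 9 of the 10 genes lay on the same side of the wild-type mean. Relative to the wild-type mean on the log2 CPM scale, wild-type 1 was lower for all 10 genes, from -0.62 for H2-K1 to -0.32 for Tapbp. Wild-type 2 was higher for 9 of 10, from 0.25 for Tap2 to 0.60 for H2-K1, with Nlrc5 at -0.17. Knockout 2 was higher for all 10, from 0.55 for Psmb10 to 1.05 for H2-K1, and knockout 3 for 9 of 10, with Psmb10 at -0.12. Wild-type 3 and 4 were mixed in sign, from -0.24 (Psmb10) to 0.40 (Nlrc5) in wild-type 3 and from -0.003 (B2m) to 0.29 (Psmb8) in wild-type 4. The highest of the 4 wild-type mice had 1.53 times (Tap2) to 2.34 times (H2-K1) the lowest one, while the ratio of the group means was between 1.08 (Psmb10) and 1.47 (B2m). On the log2 CPM scale the median SD of the 10 genes was 0.408 in wild-type and 0.531 in the knockout group, beside 0.347 and 0.407 for all genes tested.

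Knockout 1 did not shift evenly. Tap1 was at -0.84 relative to the wild-type mean, H2-K1 and H2-D1 each at -0.54 and Nlrc5 and Tapbp each at -0.33. B2m was at 0.015, Psmb10 at -0.057 and Psmb8 at 0.20. Tap1 and Psmb8, the extremes, are neighbours with 495 bases between them. Knockout 1 was also the library with the fewest detected genes, 18276 against 20286 to 23163 in the others, and the lowest sum of T cell markers. The part of either in these values was not tested. Knockout 2, the highest library for 9 of the 10 genes, had T cell and NK cell sums inside the wild-type range, a B cell sum above it, an MC38 or epithelial sum below it and the highest sum of the 8 macrophage markers, 20300 CPM against 11410 to 17120 CPM in the wild-type group. Knockout 3, above all wild-type mice for 6 of the 10 genes, had T cell, NK cell and B cell sums above the wild-type range and an MC38 or epithelial sum below it. Cdh1 made up most of the MC38 or epithelial sum, at 37.6 CPM in knockout 2 and 76.0 CPM in knockout 3. Epcam was inside its wild-type range in knockout 2 (3.74 CPM) and below it in knockout 3 (1.95 CPM). Krt18 was below its wild-type range in both. The part of these marker sums in the members' levels was not tested. With the RLE and upper-quartile scalings in place of TMM the median fold change of the 10 genes was 0.35 and 0.34.

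**Figure D2:**
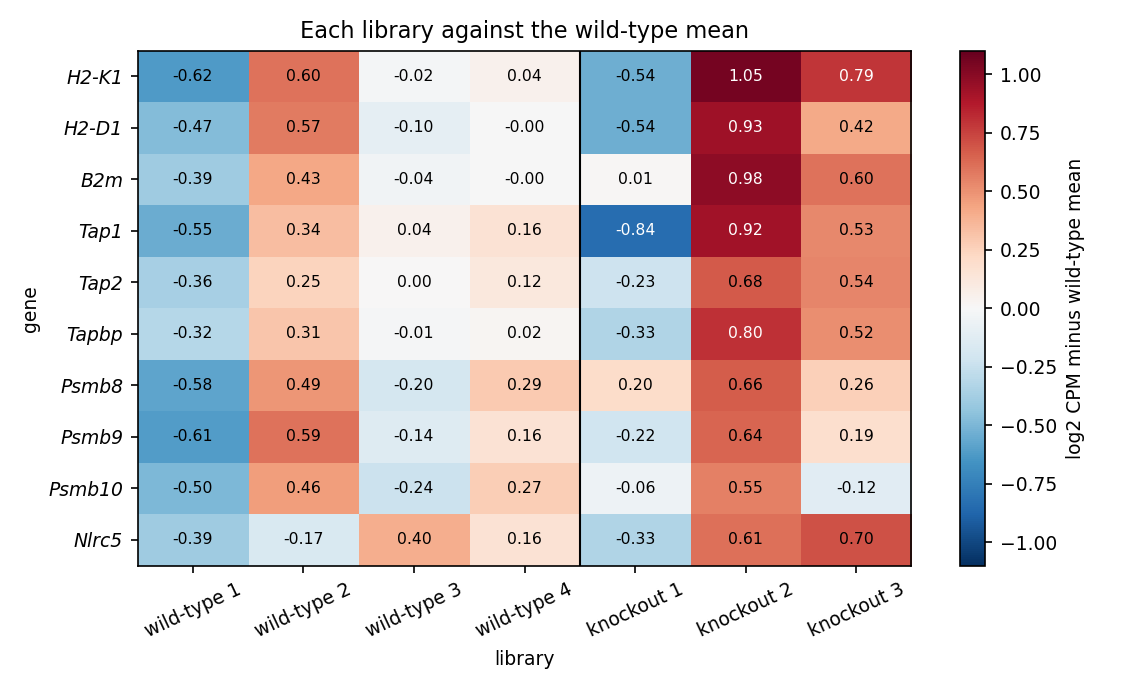
Heat map of log2 CPM minus the wild-type mean for the 10 genes (rows) in the 7 libraries (columns), with the value in each cell and wild-type mice to the left of the line. Wild-type 1 is below the wild-type mean for all 10 genes and knockout 2 above it for all 10, and knockout 1 ranges from -0.84 for Tap1 to 0.20 for Psmb8.

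Compared per kilobase of exon, as CPM per kb in wild-type mice, the order was B2m (4470.4 ± 1055), H2-D1 (2466 ± 768), H2-K1 (1069 ± 365), Tapbp (224 ± 39.2), Psmb10 (198 ± 59.1), Psmb8 (132 ± 42.2), Tap1 (92.0 ± 22.2), Psmb9 (79.3 ± 27.5), Tap2 (45.1 ± 7.77) and Nlrc5 (13.9 ± 3.36; SD, n = 4 each). The wild-type ranges of neighbours in this order overlapped, except between H2-D1 and H2-K1, H2-K1 and Tapbp, and Tap2 and Nlrc5. B2m, H2-D1 and H2-K1 held ranks 8, 15 and 40 among the 16234 genes, and Nlrc5 rank 3859. The length is the union of all annotated exons, which the cells need not use in full.

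The constitutive subunits give a reference for the immunoproteasome within the same library. Psmb5 measured 42.5 ± 12.1 CPM (SD, n = 4) in wild-type and 34.7 ± 9.53 CPM (SD, n = 3) in the knockout group. Psmb6 measured 256 ± 53.0 and 234 ± 57.2 CPM and Psmb7 36.5 ± 2.32 and 37.6 ± 6.79 CPM. None was called.

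The log2 ratio of Psmb8 to Psmb5 was 3.11, 3.43, 3.57 and 3.39 in the wild-type group, against 3.51, 4.21 and 4.39 in the knockout group. Knockout 2 and 3 exceeded all wild-type mice and knockout 1 lay within their range. The means were 3.37 ± 0.192 (SD, n = 4) and 4.04 ± 0.466 (SD, n = 3), a difference of 0.66 (two-sided exact permutation p = 0.0571, adjusted p = 0.171 over the 3 ratios). The smallest p that 35 arrangements allow is 0.0286. Of the 50-base words of Psmb5 transcripts 54.1% also occur in other genes, among them Psmb5-ps and Gm3375, so its level is uncertain.

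The log2 ratio of Psmb9 to Psmb6 was 0.14 ± 0.313 (SD, n = 4) in the wild-type group, against -0.31, 0.96 and 0.78 in the knockout group 1 to 3. Its difference of 0.34 had an exact permutation p of 0.457 (adjusted p = 0.686). The ratio of Psmb10 to Psmb7 was 3.16 ± 0.360 (SD, n = 4) and 3.25 ± 0.540 (SD, n = 3), a difference of 0.092 (exact permutation p = 0.8, adjusted p = 0.8) whose sign turned without wild-type 1 (-0.047) and without knockout 2 (-0.20). In all 3 ratios knockout 2 lay above every wild-type mouse. Without knockout 1 the differences were 0.93, 0.73 and 0.33. That of Psmb9 to Psmb6 was 0.095 without knockout 2, 0.19 without knockout 3 and 0.20 without wild-type 1. A ratio shows unequal change of a pair, not which gene of the pair changed.

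**Figure D3:**
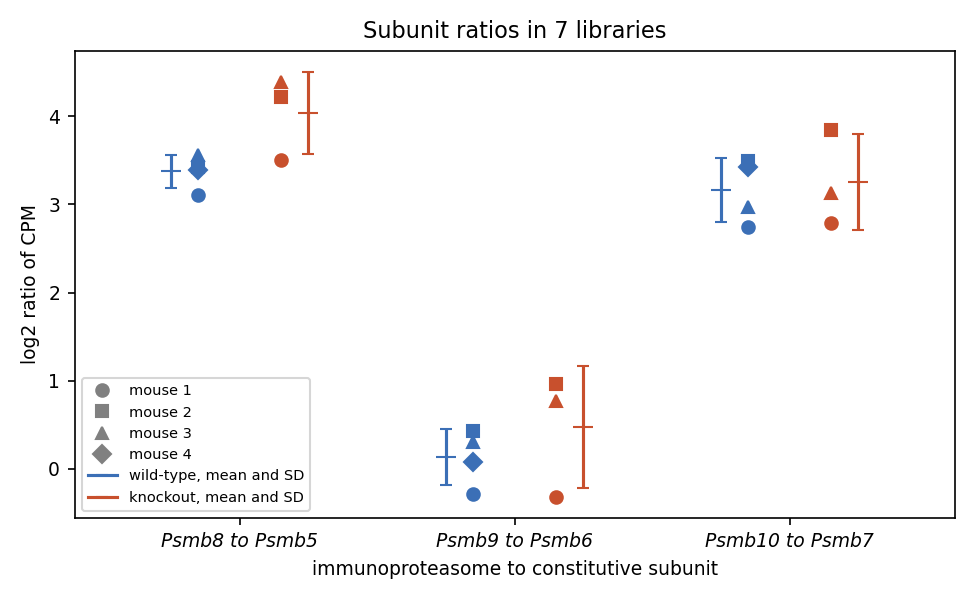
Log2 ratio of CPM of each immunoproteasome subunit to its constitutive counterpart in the 7 libraries, with the mean and SD of each group beside the points. For Psmb8 to Psmb5, knockout 2 and 3 (4.21 and 4.39) lie above the 4 wild-type values (3.11 to 3.57) and knockout 1 (3.51) among them.

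Other genes of the pathway were read from 8 lists of 49 genes, chosen by role, with earlier results of these data known. Of these 48 were tested and 0 were called in either direction, beside the 0.037% called among all genes. Fold changes were positive for 32 and negative for 16, with a median of 0.16, and 49.7% of all tested genes were positive. The 1 gene not tested, Nfya, was listed at 0 in all libraries. How reads were counted is not stated, so this value does not show that its RNA was absent.

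The 8 genes of the non-classical heavy chain list, which includes H2-K2, annotated as a transcribed pseudogene, all had positive fold changes, with a median of 0.50. H2-Q7 measured 96.7, 222, 338 and 154 CPM in the wild-type group, against 168, 692 and 513 CPM in the knockout group, with a log2 fold change of 1.17 (SE 0.51, unadjusted p = 0.046, edgeR adjusted p = 0.923). H2-Q6 measured 110.1, 286, 358 and 163 CPM in the wild-type group, against 152, 736 and 561 CPM in the knockout group, with a log2 fold change of 1.08 (SE 0.53, edgeR adjusted p = 0.98). In both, knockout 2 and 3 were above all wild-type mice and knockout 1 inside their range. H2-T23, which encodes Qa-1, a ligand of the NK cell receptor CD94-NKG2A, was at 0.56 (SE 0.41, edgeR adjusted p = 1), and H2-M3, which presents formylated peptides, at 0.37 (SE 0.24, edgeR adjusted p = 1). H2-T22, H2-T24, H2-Q4 and H2-K2 lay between 0.33 and 0.51. Shared 50-base words reached 32.0% in H2-Q6, 26.4% in H2-Q7 and 34.5% in H2-T22, so how reads divide among these genes is uncertain.

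Of the 4 class I-like genes 1 was positive, with a median of -0.12. Cd1d1, which presents lipids to NKT cells, measured 11.3 ± 8.25 CPM (SD, n = 4) in wild-type and 5.38 ± 1.11 CPM (SD, n = 3) in the knockout group, with a log2 fold change of -1.07 (SE 0.56, edgeR adjusted p = 0.989). Hfe was at -0.23, Fcgrt, the neonatal Fc receptor, at -0.0065 and Mr1, which presents vitamin B metabolites, at 0.20. The difference between these genes and the heavy chains was not tested.

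Loading chaperones and the trimming peptidase Erap1 had 5 of 5 positive, with a median of 0.19. The disulfide isomerase Pdia3 was at 0.12, calreticulin (Calr) at 0.19, calnexin (Canx) at 0.064, Erap1 at 0.19 and the tapasin-related Tapbpl at 0.44. Tapbpl measured 76.9, 134, 100.1 and 92.5 CPM in the wild-type group, against 74.3, 194 and 142 CPM in the knockout group, the same order of the knockout mice as for Tapbp.

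The 11 other subunits of the 20S core had a median of 0.018, with 7 positive and 4 negative. The highest expressed were Psma7, at 402 ± 110 and 363 ± 79.1 CPM, and Psma1, at 219.6 ± 25.4 and 218 ± 33.2 CPM (SD, n = 4 and 3). Activator and assembly genes had a median of 0.091. Psme1 and Psme2, the interferon-inducible PA28 subunits, were at 0.091 and 0.24, Psme3 at -0.028, the assembly factor Pomp at 0.26 and Psmg1 at -0.19.

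Among the regulatory factors 5 of 6 tested were positive, with a median of 0.19. Irf1, a transcription factor that acts on class I and immunoproteasome promoters, measured 130.2, 409, 254 and 333 CPM in the wild-type group, against 263, 525 and 592 CPM in the knockout group, with a log2 fold change of 0.71 (SE 0.39, edgeR adjusted p = 0.997). Knockout 2 and 3 were above all wild-type mice and knockout 1 within their range. The RFX subunits, which bind the X box, were at 0.48 (Rfx5), 0.15 (Rfxank) and 0.21 (Rfxap), Irf2 at 0.17 and Creb1 at -0.087.

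In the interferon gamma list 2 of 6 were positive. Ifng itself measured 0.166, 9.92, 3.95 and 11.3 CPM in the wild-type group, against 1.57, 1.59 and 29.8 CPM in the knockout group. It was highest in knockout 3, the library with the highest T cell and NK cell marker sums. Knockout 2, the highest library for 9 of the 10 genes, was below 3 of the 4 wild-type mice for Ifng. The receptor chains Ifngr1 and Ifngr2 were at -0.21 and 0.20, the kinases Jak1 and Jak2 at -0.15 and -0.56 and the feedback inhibitor Socs1 at -0.066.

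**Figure D4:**
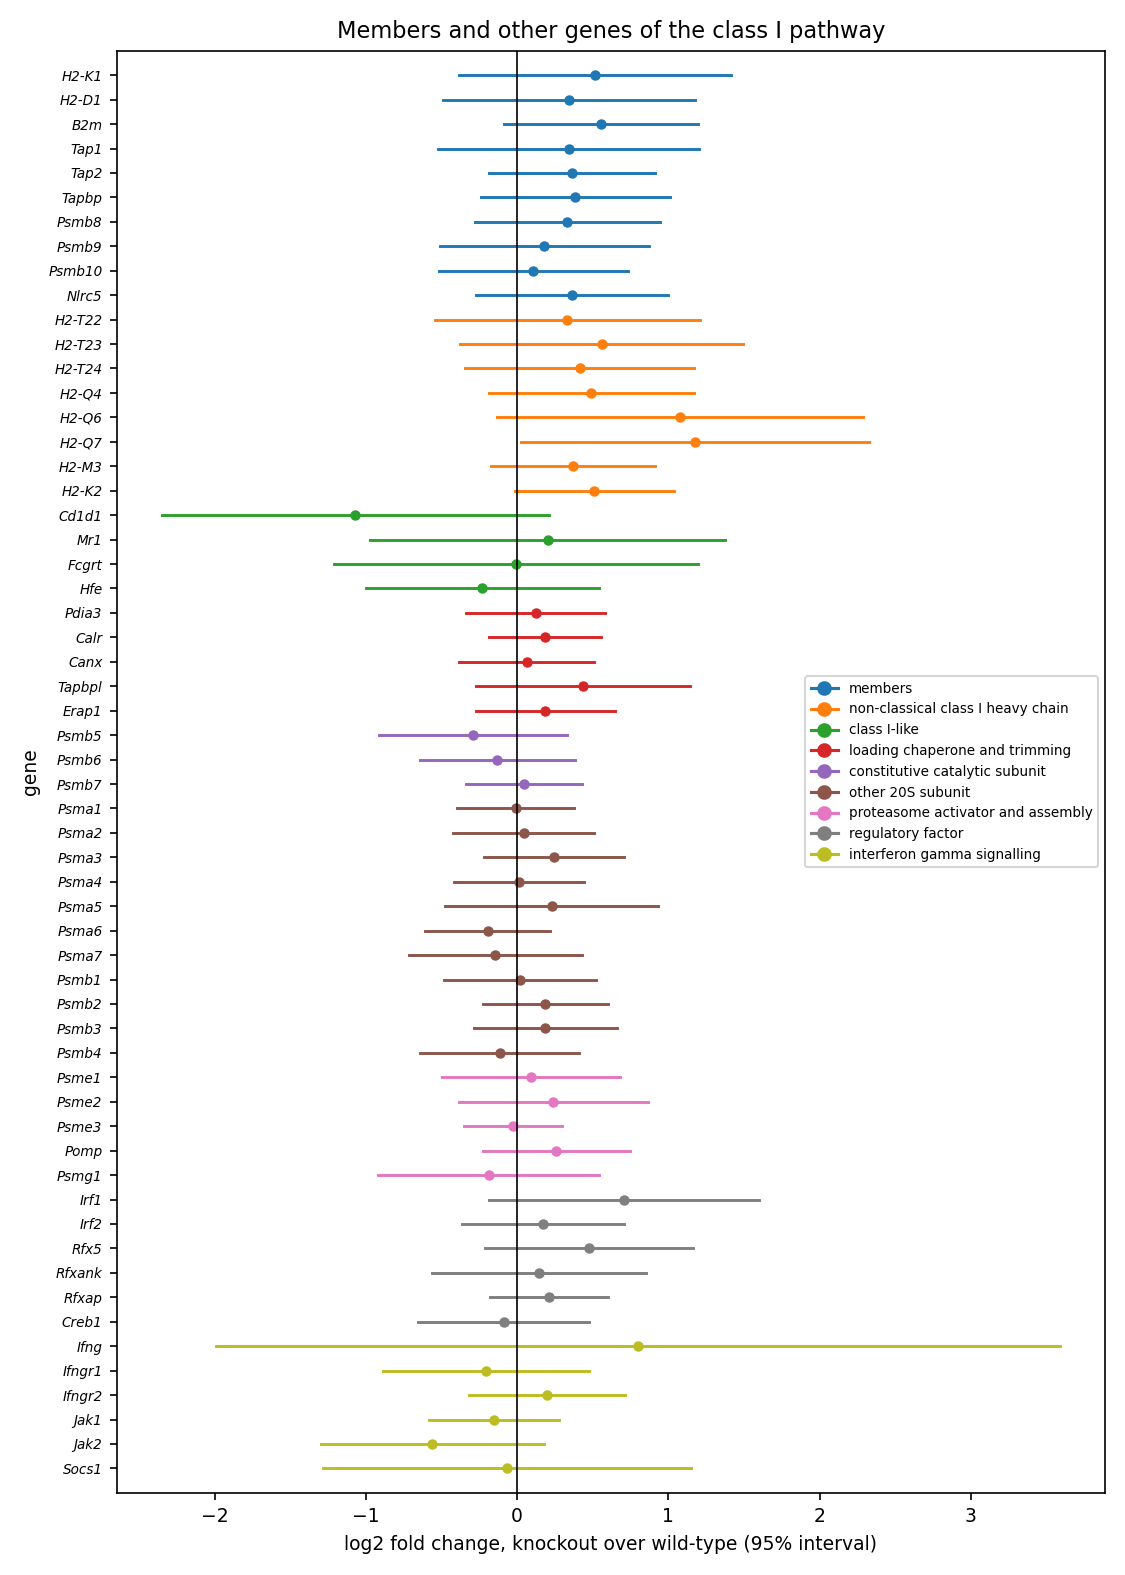
Fitted log2 fold change, knockout over wild-type, with 95% interval for the 10 genes and 48 tested genes of the 8 pathway lists, coloured by role. All 10 points lie right of 0 with intervals that cross it, the non-classical heavy chains reach 1.17 (H2-Q7, edgeR adjusted p = 0.923), and the constitutive and other core proteasome subunits lie between -0.29 (Psmb5) and 0.24 (Psma3).

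The genes whose pattern over the 7 libraries was most like the mean log2 CPM of the 10 were Ly6a, Fcgr4, H2-T23, Tmem173, H2-Eb1 and Iigp1. They were the first 6 by Pearson correlation among 8404 protein-coding genes with an average log2 CPM of at least 3, with r between 0.978 and 0.988, and 149 genes exceeded 0.9. Over 7 libraries such values describe likeness and are given without a p, and the genes were picked because they were highest. Without knockout 2 and wild-type 1, the libraries farthest from the median, r was between 0.959 and 0.995.

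Fcgr4, an activating Fc receptor, measured 98.5, 302, 164 and 177 CPM in the wild-type group, against 117, 599.5 and 375 CPM in the knockout group. The order of the libraries was that of the mean of the 10 genes (Spearman rho = 1), as it was for Tmem173, H2-Eb1 and Iigp1. For Ly6a and H2-T23 rho was 0.964. H2-Eb1, a class II beta chain, measured 1617, 8861, 2665 and 4113.5 CPM in the wild-type group, against 1644.5, 13758 and 8955 CPM in the knockout group. Ly6a ranged from 290.1 CPM in wild-type 1 to 1803 CPM in knockout 2, Tmem173 (STING) from 171 to 311 CPM and Iigp1, an interferon-inducible GTPase, from 43.2 to 309 CPM, in the same libraries. None of the 6 was called, with an edgeR adjusted p of at least 0.989.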

How the data were processed

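RNA of sorted tumour macrophages was measured in 7 libraries, prepared with a SMART-seq kit from polyA RNA per the labels' protocols. The authors deposited raw read counts per gene, not normalized, with 22449772 to 30483733 per library. Build GRCm38 and the tools BWA 0.7.12, DESeq2 1.24.0, cutadapt 1.15 and FastQC 0.11.5 are named, without roles, per the submitters' processing notes. The sources used here do not say how reads were counted or whether by strand. Tap1 and Psmb9 overlap by 212 bases on opposite strands, and it is not known whether their reads there were told apart. How reads were assigned where Zbtb22 overlaps Tapbp is not known either. Loss of reads over exon junctions, possible with an aligner that does not span introns, was not tested.

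Genes were named by identifier from GENCODE M21 (53274 of 53379 matched). Counts were fitted with edgeR 4.0.16 in R 4.3.3: TMM scaling, the default filter by group, robust quasi-likelihood F test on genotype, Benjamini-Hochberg adjustment over 16234 genes and a threshold of 0.05. Values are TMM-scaled CPM, log2 CPM has a prior count of 2, and the SE is the fold change divided by the root of F, which also gives the 95% interval. Each library is 1 mouse. Subunit ratios used a two-sided exact permutation test.

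Pathway genes were named in full for lists of at most 8 tested genes and otherwise by the 2 highest expressed, and the 6 most alike genes by correlation. Not every gene of the pathway is reported here. The genes, lists and motifs were chosen with earlier results of these data known. Alternatives were RLE and upper-quartile scaling, no filter, DESeq2 1.42.0, limma 3.58.1 voom with library weights, the mouse number as a block, an adjusted p of 0.1, a prior count of 0.5 for ratios and each library left out.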

Additional observations from a re-analysis of the deposited data

How the results depend on the processing

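None of the 10 genes was called under any alternative run. Of 130 values of single genes under 13 alternatives, 124 kept a positive fold change and 6 turned negative, all on leaving out wild-type 1 or knockout 2. Over the fits without 1 library the log2 fold change ranged from -0.034 to 0.63 for H2-D1, -0.036 to 0.68 for Tap1, -0.069 to 0.41 for Psmb9 and -0.14 to 0.28 for Psmb10. It stayed positive, but moved by over 1.5 times, for H2-K1 (0.21 to 0.84), B2m (0.30 to 0.75), Tap2 (0.19 to 0.57), Tapbp (0.13 to 0.63), Psmb8 (0.14 to 0.51) and Nlrc5 (0.18 to 0.61). The lowest value came without knockout 2, except for Psmb8 (without wild-type 1) and Nlrc5 (without knockout 3). Psmb9 and Psmb10 were at -0.018 and -0.064 without wild-type 1. The difference in the log2 ratio of Psmb10 to Psmb7 ranged from -0.20 to 0.33. The cause was not tested.

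Over all genes 6 were called, 11 without a filter, 120 by DESeq2 (44 higher and 76 lower), 10 by limma voom with library weights, 1 with the mouse number as a replicate block, and 3 to 14 without 1 library. The mouse numbers name separate mice and are shared by 3 pairs, and wild-type 4 adds nothing to the blocked fit. No label says that the numbers pair the mice, so they were not taken to do so. Deviations from the group means correlated at 0.051 to 0.088 within pairs. Mice with different numbers were not compared, so these values cannot settle whether the mice were paired. With the block the median of the 10 genes was 0.351. The exact ratio test cannot go below 0.1 without a wild-type mouse or below 0.0667 without a knockout mouse.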

Other observations

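The 25-base spacing of TGACG and ATTGG found before H2-K1, H2-D1 and B2m was also present before H2-M3. Of the 26 genes with it, 19 were tested. The 4 class I chains among them had log2 fold changes of 0.52 (H2-K1), 0.34 (H2-D1), 0.56 (B2m) and 0.37 (H2-M3). The 15 other tested genes had a median of -0.061, with 4 positive and 11 negative, from -0.87 for Kcnq1ot1 to 0.47 for the clock gene Per1. The other positive genes were Znrd1 (0.45), Trim26 (0.24) and Ubn1 (0.17). After Kcnq1ot1 the lowest were Nfe2l1 (-0.40), Xpnpep1 (-0.34) and Tecpr1 (-0.25). None of the 19 was called by edgeR over all genes. The spacing was chosen after the sequences were seen, and the difference between these genes was not tested.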
